A study of Mus musculus with 20 samples.

Results

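The joint loss of 2 transcription factors, Foxo1 and Hnf4a, was examined in sorted mouse pancreatic beta cells for departures from the sum of the single losses. The measure was the interaction, which is the effect of Foxo1 loss in cells without Hnf4a less the effect of Foxo1 loss in cells with Hnf4a, on log2(FPKM + 0.5). FPKM is the number of fragments per kilobase of gene, scaled to the depth of the library. An interaction of 0 means that the 2 losses added up, a negative value that the double knockout lay below the sum and a positive value that it lay above. Genes whose mean over all 20 libraries reached 0.5 FPKM were included, which gave 12455 of 26305 named genes.

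The 4 groups held 5 libraries each, all from male mice aged 6 to 8 months on a chow diet. WT is labelled wild type with no further allele, IKO carries floxed Foxo1, HKO carries floxed Hnf4a, and DKO carries both floxed genes, each deleted by RIP-Cre, a Cre recombinase driven by the rat insulin promoter. The sorted cells are described as marked by RIP-Cre together with a tomato reporter at ROSA26, so that the sort selects cells in which this Cre has acted. The labels do not say whether libraries came from separate animals, and p-values therefore measure a spread among libraries that can be technical. The title of the series describes the networks of the 2 factors as antagonistic, and the interaction is the contrast that asks whether the effect of losing one depends on the other.

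Foxo1 is a forkhead transcription factor that insulin signalling keeps out of the nucleus through phosphorylation by Akt, and in beta cells it is known for its role in the response to metabolic stress and in keeping cell identity. Hnf4a is a nuclear receptor that binds DNA as a homodimer, and human carriers of HNF4A mutations can develop maturity-onset diabetes of the young. When 2 regulators act on a gene independently and multiplicatively, their effects add on the log scale.

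Sequencing depth, recovered from the deposited values, was 22.6 to 34.7 M reads per library. The insulin genes Ins1 and Ins2 took 14.9 to 22.3% of reads, and of 10 beta cell markers the lowest level in any library was 17.0 FPKM, for the glucose transporter Slc2a2. Transcripts of other islet hormones were also present, with the glucagon gene Gcg at 194 to 1454 FPKM, and acinar markers summed to 51.8 to 1776 FPKM. In every genotype replicates 1 and 2 resembled each other far more than other pairs, and so did replicates 4 and 5, so that the libraries fall into 3 sets: replicates 1 and 2, replicate 3, and replicates 4 and 5. In bulk samples a change in the share of a cell type and a change in RNA per cell cannot be told apart.

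The targeted genes were reduced in the groups labelled as their knockouts, Foxo1 by a log2 change of -1.95 (limma adjusted p = 5.9e-07) and Hnf4a by -0.43 (limma adjusted p = 0.0046), each averaged over the states of the other factor. Foxo1 (chr3:52268336-52353221, GENCODE vM21 on GRCm38, the build also called mm10) was at 8.61, 7.82, 5.33, 5.80 and 5.64 FPKM in WT and at 7.49, 7.83, 6.47, 3.95 and 4.10 in HKO. It was at 1.36, 1.43, 1.51, 0.791 and 0.462 FPKM in IKO and at 1.58, 1.59, 1.61, 1.09 and 1.15 in DKO, all below every library that kept the gene. Hnf4a (chr2:163506808-163572910) was at 6.21, 6.52, 4.32, 5.33 and 5.42 FPKM in WT and at 6.23, 6.23, 5.80, 4.78 and 3.91 in IKO, against 4.28, 4.08, 3.64, 3.40 and 3.72 in HKO, next to 4.19, 3.52, 4.41, 3.96 and 3.84 in DKO. For Hnf4a the libraries with and without the deletion overlapped. Which exons the floxed alleles remove is not stated by the labels, and a value over the whole gene also counts exons outside a deletion. The interaction was 0.45 (SE 0.302) for Foxo1 and 0.10 (SE 0.164) for Hnf4a, with limma adjusted p-values of 0.989 each, so that no difference in the loss of either transcript between single and double knockout was detectable.

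Departures from additivity that passed the test were almost absent. With limma across all 20 libraries, 1 of 12455 genes (0.00803%) had a Benjamini-Hochberg adjusted p below 0.05, the threshold for passing, and the next lowest adjusted p was 0.263. At an unadjusted p below 0.05, 551 genes (4.42%) were reached, 274 of them (2.20%) with a positive and 277 (2.22%) with a negative interaction. Over all genes 6287 (50.5%) lay above 0 and 6168 (49.5%) below, with a median interaction of 0.00188. The typical precision was a SE of 0.143 and a 95% interval of 0.298 to either side. For 11768 genes, or 94.5%, the whole interval lay within 1 log2 unit of 0, and for 12323 genes (98.9%) within 2 units. These intervals count all 20 libraries as independent. The replicates that resembled each other closely may be repeat preparations, and the consensus correlation within such pairs was 0.81. The intervals may therefore be too narrow and these shares too high. For a typical gene at this number of libraries, an estimated departure had to exceed 0.298 to reach an unadjusted p below 0.05. A true departure of about that size could therefore be missed. To pass after adjustment over 12455 genes an estimate had to be larger still.

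The gene that passed was Copz2, which encodes the zeta-2 subunit of the coatomer, the coat of vesicles that travel from the Golgi to the endoplasmic reticulum. Copz2 was at 31.7, 34.1, 31.7, 32.5 and 33.6 FPKM in WT and at 29.9, 29.7, 30.6, 31.9 and 32.8 FPKM in DKO. It was at 36.4, 35.2, 37.7, 41.2 and 42.2 FPKM in IKO and at 35.5, 37.3, 39.1, 37.1 and 36.3 FPKM in HKO. Each of the 10 single-knockout libraries lay above each of the 10 WT and DKO libraries, whose ranges overlapped. The group means were 32.7 ± 1.1 FPKM in WT, 38.5 ± 3.0 in IKO, 37.0 ± 1.3 in HKO, with 31.0 ± 1.4 in DKO (SD, n = 5 each), while additive effects would have put DKO at 43.5 FPKM. The interaction was -0.48 (SE 0.073, 95% interval -0.64 to -0.33, limma adjusted p = 0.0274). Copz2 had the same sign in each set, with -0.40 in replicates 1 and 2, -0.60 in replicate 3 and -0.51 in replicates 4 and 5. On linear FPKM the interaction was -11.9 FPKM (limma adjusted p = 0.0166).

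The call on Copz2 depended on the libraries included, the scaling and the treatment of close pairs. Leaving out 1 library kept the size between -0.51 and -0.45 and gave limma adjusted p-values of 0.0109 to 0.0940. The call was lost in 14 of the 20 such fits, those without WT 1, 4 or 5, IKO 3, 4 or 5, HKO 2, 3, 4 or 5, or DKO 1, 2, 3 or 4, where adjusted p was 0.0515 to 0.0940. With the close pairs of libraries averaged into 1 sample each, the interaction of Copz2 was -0.50 and its limma adjusted p 0.99984, and with the pairs treated as correlated the adjusted p was 0.673. Over all 20 libraries the limma adjusted p was 0.408 with libraries scaled to equal medians (interaction -0.50) and 0.0744 with voom on recovered reads (-0.49).

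Copz2 lies at chr11:96849870-96861203. Its promoter, taken from RefSeq on GRCm38.p6 as 250 bases before to 50 after the gene's start, is shown because it is the only gene to pass, and was searched on both strands for a FoxO core (TGTTTAC) and for an HNF4 half-site extended at its 5' end (AAAGTCC). Neither occurs in these 300 bases, so the sequence stands in lower case. Of 32851 promoters of this length, 3.65% hold the FoxO letters and 4.21% the HNF4 letters. The absence of these letters from this window says nothing about binding elsewhere.
Copz2, chr11:96849626-96849925, plus strand: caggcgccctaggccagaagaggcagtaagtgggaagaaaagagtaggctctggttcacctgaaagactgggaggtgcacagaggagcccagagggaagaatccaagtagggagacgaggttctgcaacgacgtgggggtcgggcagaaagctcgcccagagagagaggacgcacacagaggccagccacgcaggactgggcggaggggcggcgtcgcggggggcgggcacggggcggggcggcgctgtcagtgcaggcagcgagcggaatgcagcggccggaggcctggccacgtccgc

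Apart from Copz2, 15 named genes had interactions of the same sign in all 3 library sets and the lowest unadjusted p-values among genes of at least 1 FPKM, 8 positive and 7 negative. Over all genes tested, 2006 (16.1%) had the same sign in the 3 sets, 951 (7.64%) positive and 1055 (8.47%) negative. These genes were chosen by the interaction itself, so their sizes are a description, and with limma none of the 15 passed (adjusted p 0.428 to 0.853).

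Among the positive ones, Gbp11 had the largest value. It belongs to the family of the guanylate-binding proteins, GTPases induced by interferon whose genes are close copies of each other, so that reads may have been shared among them. In GENCODE vM21 this member is annotated as a polymorphic pseudogene. Gbp11 was at 1.54, 1.31, 1.51, 1.47 and 1.86 FPKM in WT, at 1.32, 1.22, 1.27, 0.545 and 0.919 in IKO, at 0.924, 0.555, 0.891, 1.05 and 1.20 in HKO, and at 1.71, 1.63, 1.99, 1.24 and 1.44 in DKO. All HKO libraries lay below all DKO and WT libraries, and the IKO libraries overlapped both. The interaction was 0.98 (SE 0.211), with 0.94, 1.02 and 1.004 in the 3 sets.

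Oat, the mitochondrial enzyme ornithine aminotransferase, had group means of 1.02 FPKM in WT, 0.896 in IKO, 1.88 in HKO, with 2.66 in DKO. Its 5 DKO libraries, at 2.32 to 2.98 FPKM, all lay above its 5 HKO libraries at 1.74 to 2.09. The interaction of Oat was 0.54 (SE 0.133), and 0.20 in replicate 3 against 0.58 and 0.67 in the other sets. Rtn1, a reticulon of the endoplasmic reticulum, was at 4.23 FPKM in WT, 3.77 in IKO, 3.32 in HKO, with 4.45 in DKO, an interaction of 0.53 (SE 0.143). Cyb5r3, the reductase of cytochrome b5, was at 166, 123, 137 and 142 FPKM in the same order, an interaction of 0.51 (SE 0.139) that was 1.05 in replicates 4 and 5 and 0.18 and 0.12 in the others. Fdps, which makes farnesyl diphosphate on the way to cholesterol, was at 58.9, 47.3, 46.0 and 49.3 FPKM, an interaction of 0.42 (SE 0.110). The nucleoside and monoamine transporter Slc29a4 (0.41), the chondroitin sulfotransferase Chst11 (0.30) and the cell-surface proteoglycan Gpc4 (0.29) had smaller values, with SEs of 0.110, 0.077 and 0.076. For Fdps, Rtn1, Cyb5r3, Chst11, Gpc4 and Gbp11 the common shape was a WT and DKO level above at least 1 single knockout.

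Among the negative ones, Spon2, a secreted protein of the extracellular matrix, was at 4.09, 4.24, 4.29, 3.69 and 3.61 FPKM in WT, 5.004, 5.20, 5.54, 5.09 and 4.37 in IKO, 3.54, 3.71, 3.45, 3.33 and 3.10 in HKO, with 2.96, 3.09, 2.39, 2.504 and 3.15 in DKO. Its IKO libraries lay above all others, and its DKO libraries overlapped those of HKO at the edge. The interaction of Spon2 was -0.55 (SE 0.114), with -0.49, -0.79 and -0.49 in the 3 sets. Bnip3l, a receptor for the removal of mitochondria, was at 14.2, 15.1, 8.84, 10.4 and 11.1 FPKM in IKO and between 7.55 and 9.49 FPKM in every library of the other groups. The 4 IKO libraries other than replicate 3 stood apart from the rest, and its interaction of -0.52 (SE 0.146) was -0.62, -0.15 and -0.60 in the 3 sets.

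Qpct, the glutaminyl cyclase that forms pyroglutamate at the start of peptides, was at 7.42 FPKM in WT, 9.79 in IKO, 8.00 in HKO, with 7.44 in DKO, an interaction of -0.47 (SE 0.107) that was -0.05 in replicate 3. Syce2, a protein of the meiotic synaptonemal complex, was at 3.81, 4.95, 4.44 and 3.64 FPKM, an interaction of -0.58 (SE 0.145). Rpl29, a ribosomal protein with many processed copies that may share its reads, was at 38.8, 46.5, 44.2 and 36.4 FPKM, an interaction of -0.55 (SE 0.145). Rnf208 (-0.57, SE 0.157), which carries a RING domain, and the hydrolase-fold protein Abhd14a (-0.43, SE 0.119) completed the group. In Syce2, Rpl29, Rnf208 and Abhd14a, as in Copz2, both single-knockout means lay above the WT mean.

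**Figure D1:**
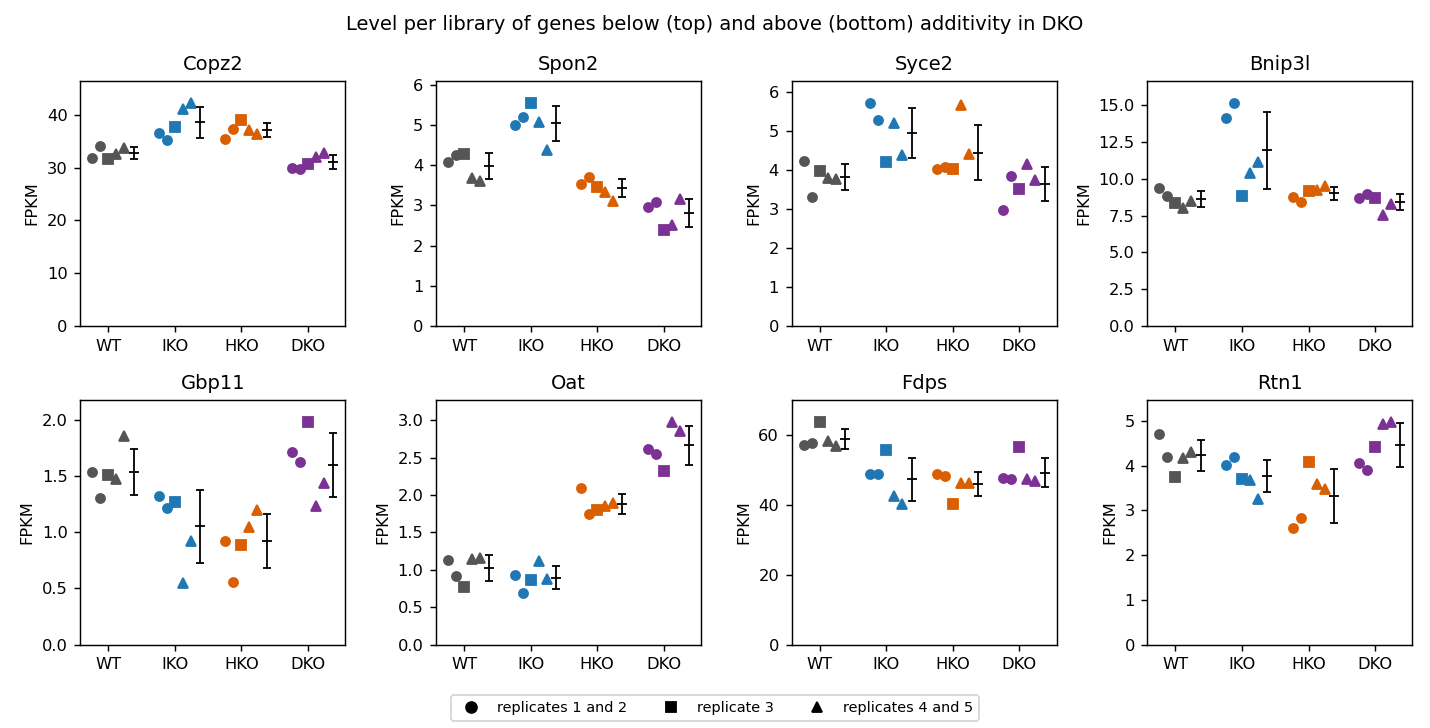
Level in FPKM (y axes, linear from 0) of 8 genes in each library of WT, IKO, HKO and DKO. Circles are replicates 1 and 2, squares replicate 3 and triangles replicates 4 and 5, and the bar beside each group is the mean ± SD (n = 5). For Copz2 the 10 single-knockout points lie above the WT and DKO points, and for Bnip3l replicate 3 of IKO lies with the other groups at 8.84 FPKM.

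**Figure D2:**
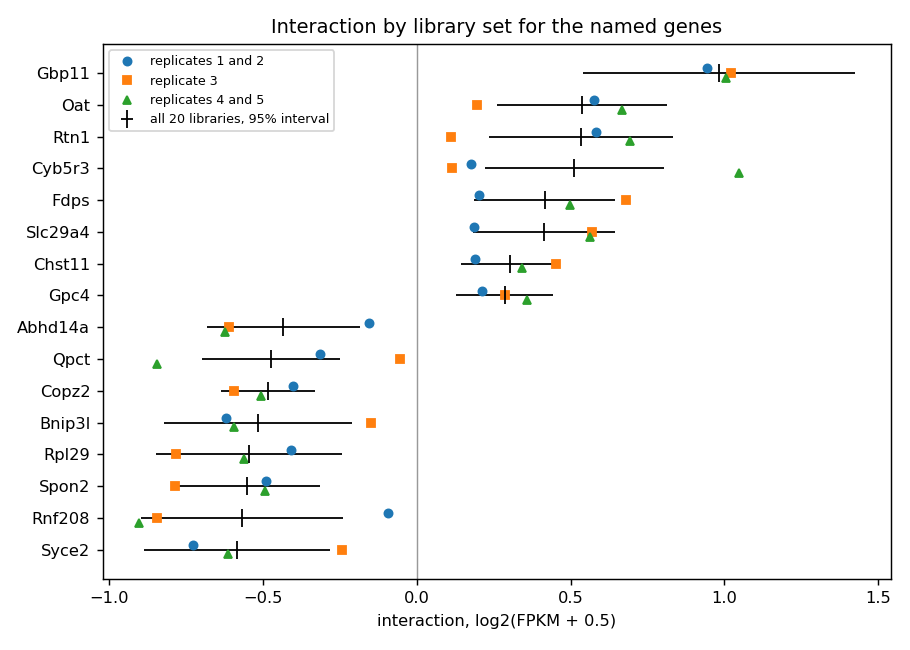
Interaction on log2(FPKM + 0.5) (x axis) of 16 genes chosen for low p and one sign in all library sets. The vertical mark and line are the estimate from 20 libraries with its 95% interval, and circles, squares and triangles are the estimates within replicates 1 and 2, replicate 3 and replicates 4 and 5. Gbp11 has the largest positive value at 0.98 with sets from 0.94 to 1.02, while the sets of Cyb5r3 run from 0.12 to 1.05.

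The effect of losing Hnf4a, averaged over both Foxo1 states, gives genes whose choice does not use the interaction. This averaged effect passed for 324 genes (2.60%), 120 higher and 204 lower without Hnf4a. With limma it passed for 46 genes with close pairs averaged, 94 with them correlated and 197 with the acinar level as a covariate, and for 515 with the replicate number as a block and 1688 with library weights, so the 324 are a set of this fit. The values that follow come from that fit. Their median change, counted in the direction of the averaged effect, was 0.39 between HKO and WT and 0.42 between DKO and IKO on the log2 scale. The interaction enlarged the effect in 163 of the 324 genes and reduced it in 161, with a median of 0.00577 in the direction of the effect. Within the sets this median was -0.0177, 0.0294 and 0.0536. For 307 of the 324 genes the 95% interval of the interaction excluded a complete loss of the effect in either Foxo1 state. The choice of genes by an averaged effect that is large against the same spread favours this count. Counting the libraries of close pairs as independent, which may make the intervals too narrow, favours it as well. At an unadjusted p below 0.05, 36 of the 324 (11.1%) had an interaction, 27 enlarging and 9 reducing the effect. Averaged effect and interaction share 1 estimate of the spread of each gene, which favours genes of small spread in both, so this share is not read against the 4.42% over all genes. In 323 of the 324 genes both simple effects had the same direction, which the choice by their average favours.

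Sparcl1, a secreted matricellular protein, had the largest averaged Hnf4a effect. It was at 0.373, 0.276, 0.360, 0.716 and 0.839 FPKM in WT, 0.667, 0.578, 1.34, 0.393 and 0.966 in IKO, 5.29, 4.51, 3.42, 3.16 and 3.07 in HKO, with 7.63, 7.98, 5.37, 7.95 and 7.64 in DKO. Every DKO library lay above every HKO library. Its averaged effect was 2.38 (limma adjusted p = 1.5e-09) and its interaction 0.51 (SE 0.274, 95% interval -0.06 to 1.08, limma adjusted p = 0.989), with 0.18, -0.51 and 1.36 in the 3 sets. The next by size were 5 genes of acinar digestive enzymes, Try4, Pnlip, Ctrb1, Prss2 and Try5, with averaged effects of 2.24 to 2.34 and interactions of -0.86 to -0.55 with SEs of up to 1.12. Ctrb1, chymotrypsinogen, was at 476 and 487 FPKM in HKO replicates 4 and 5 and at 476 in DKO replicate 3, and between 7.92 and 140 in all other libraries. These were the 3 libraries highest in acinar markers.

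Among the 324 genes those with the lowest interaction p, besides Oat, Chst11 and Spon2, included Smoc1, a secreted calcium-binding protein. Smoc1 was at 4.46 FPKM in WT, 6.06 in IKO, 4.24 in HKO, with 3.62 in DKO, an interaction of -0.60 (SE 0.155) that was -0.50, 0.21 and -1.10 in the 3 sets. Spon2 and Smoc1 differed between DKO and IKO by -0.74 and -0.66 and differed between HKO and WT by -0.19 and -0.07 on the log2 scale.

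The averaged Foxo1 effect passed for 2 genes (0.0161%), Foxo1 itself and Rps15a-ps5, a ribosomal protein pseudogene that may take reads from its parent. Rps15a-ps5 was at 1.54 FPKM in WT, 0.491 in IKO, 1.48 in HKO, with 0.755 in DKO, with an interaction of 0.40 (SE 0.262). With so few genes, the reverse question, whether Hnf4a loss alters Foxo1 effects, could be asked only of all genes together.

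Across the 12455 genes, the effects of Hnf4a loss in the 2 Foxo1 states resembled each other and those of Foxo1 loss in the 2 Hnf4a states did not. HKO minus WT and DKO minus IKO, which share no library, correlated at r = 0.449 across genes, and IKO minus WT and DKO minus HKO, which also share none, at r = -0.050. Within the sets the first correlation was 0.226, 0.081 and 0.208 and the second -0.032, -0.220 and -0.095. Genes are not independent replicates, and the libraries within a set resemble each other, so these values describe the libraries.

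**Figure D3:**
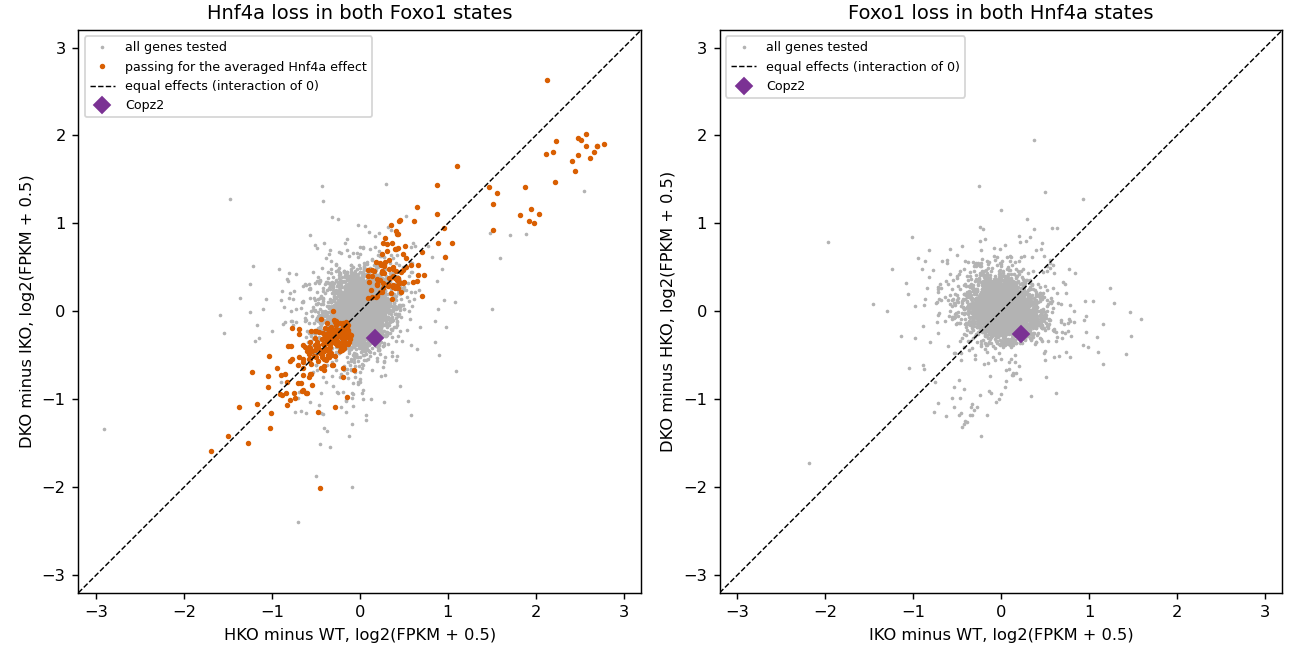
Effect of Hnf4a loss (left) and of Foxo1 loss (right) on log2(FPKM + 0.5) in cells with (x axes) and without (y axes) the other factor, 1 point per gene (12455). The dashed line marks equal effects, orange points are the 324 genes passing for the averaged Hnf4a effect, and the purple diamond is Copz2. The left cloud is drawn out along the line (r = 0.449) and the right cloud is not (r = -0.050).

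The gene lists below were described by their counts and medians beside those of all genes. The list with the most negative median among metabolic lists was glycolysis and low-oxygen response, which holds glycolytic enzymes and genes that hypoxia-inducible factor (HIF) switches on when oxygen is short. Of 31 genes 27 were tested, and none passed with limma. Their median interaction was -0.63, 23 lay below 0 and 4 above, and 12 were negative at an unadjusted p below 0.05 while none was positive. At that level 2.22% of all genes were negative and 2.20% positive. The median change was 0.49 between IKO and WT, with 26 of 27 above 0, and -0.09 between DKO and HKO.

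The mean level of the list on log2(FPKM + 0.5) was 4.72, 4.74, 4.67, 4.59 and 4.65 in the WT libraries, 5.67, 5.65, 4.40, 5.10 and 5.08 in IKO, 4.29, 4.27, 4.40, 4.88 and 4.87 in HKO, with 4.39, 4.35, 4.53, 4.503 and 4.49 in DKO. IKO replicates 1, 2, 4 and 5 stood above every other library, and IKO replicate 3 lay below every WT library. HKO replicates 4 and 5 lay above every WT and DKO library, and the other 3 HKO libraries below every WT library. The median interaction was accordingly -1.05 in replicates 1 and 2 and -0.84 in replicates 4 and 5 but 0.38 in replicate 3, beside medians of 0.08, -0.00 and -0.15 for all genes in those sets. It was -0.40 with close pairs averaged and -0.33 without the 3 libraries highest in acinar markers (HKO 4, HKO 5 and DKO 3).

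The glucose transporter Slc2a1 was at 17.5 to 19.6 FPKM in WT, at 43.1, 42.2, 13.6, 36.8 and 34.8 FPKM in IKO, at 13.1 to 25.9 in HKO and at 12.5 to 19.8 in DKO, an interaction of -0.90 (SE 0.36). The lactate exporter Slc16a3 was at 5.73, 5.18, 0.191, 1.87 and 1.89 FPKM in IKO against 0.398 to 0.580 in WT, 0.0492, 0.0265, 0.222, 1.52 and 1.23 in HKO, with 0.0785 to 0.238 in DKO, an interaction of -1.91 (SE 0.65). Ldha, lactate dehydrogenase A, a gene that beta cells normally keep low, was at 42.6, 41.6, 1.36, 14.6 and 14.9 FPKM in IKO, 3.49 to 5.29 in WT, 0.608, 0.336, 1.46, 11.6 and 11.8 in HKO, with 1.64 to 3.03 in DKO. In all 3 genes the same 4 IKO libraries were high and IKO replicate 3 was the lowest of its group, and HKO replicates 4 and 5 also lay above every WT and DKO library. The oxygen sensor Egln3 (-1.04, SE 0.28), the collagen prolyl hydroxylase P4ha1 (-0.83, SE 0.28), the ankyrin repeat gene Ankrd37 (-0.87, SE 0.29) and the mitophagy receptor Bnip3 (-0.99, SE 0.40) were likewise higher in these 4 IKO libraries than in any WT library. Egln3 was negative in all 3 sets (-1.53, -0.25 and -0.94). The enzymes of the pathway itself had interactions of -0.81 for Pfkl, -0.72 for Tpi1, -0.69 for Pgk1 and -0.56 for Pgam1, and values close to 0 for Pfkm (0.06) and Ldhb (0.10).

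The promoters of the 2 list members with the lowest interaction p, Egln3 and Ankrd37, are shown with the HIF core ACGTG of either strand in capitals (RefSeq, GRCm38.p6, 300 bases each). Of the 25 tested members with an entry, 13 (52.0%) hold this core, against 19.6% of all promoters, and the list was drawn in part from known HIF targets. A match is a run of letters and not a shown binding site.
Egln3, chr12:54203825-54204124, minus strand: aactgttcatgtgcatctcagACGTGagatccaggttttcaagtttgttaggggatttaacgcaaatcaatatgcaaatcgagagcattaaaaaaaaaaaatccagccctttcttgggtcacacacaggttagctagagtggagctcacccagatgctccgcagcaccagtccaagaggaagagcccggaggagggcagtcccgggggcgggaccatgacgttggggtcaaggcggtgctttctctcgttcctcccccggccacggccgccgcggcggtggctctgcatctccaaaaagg
Ankrd37, chr8:45999801-46000100, minus strand: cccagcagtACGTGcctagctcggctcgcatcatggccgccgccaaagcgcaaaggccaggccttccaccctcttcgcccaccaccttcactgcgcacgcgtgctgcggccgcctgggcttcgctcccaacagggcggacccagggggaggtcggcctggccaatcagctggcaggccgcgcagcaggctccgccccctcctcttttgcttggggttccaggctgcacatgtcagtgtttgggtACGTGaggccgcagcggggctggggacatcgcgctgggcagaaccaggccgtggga

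Genes of cholesterol synthesis and uptake had a positive median and no conflict of sign between the set medians. These genes share control by the sterol-sensing factor Srebf2, which cells activate when membrane cholesterol is low. Of 26 genes 25 were tested and none passed with limma. Their median interaction was 0.29, 21 lay above 0, and 11 were positive at an unadjusted p below 0.05 while none was negative. At that level 2.20% of all genes were positive and 2.22% negative. The sign was positive in all 3 sets for 14 genes and negative for 1, beside 7.64% and 8.47% of all genes. The median was 0.21 in replicates 1 and 2, 0.28 in replicate 3 and 0.39 in replicates 4 and 5. For all genes the medians in those sets were 0.08, -0.15 and -0.00. Against WT the median difference was -0.15 for IKO and -0.11 for HKO, while it was -0.01 for DKO.

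The mean level of the list was 4.03, 4.02, 3.90, 3.81 and 3.88 in WT, 3.89, 3.88, 3.89, 3.68 and 3.70 in IKO, 3.86, 3.84, 3.80, 3.68 and 3.69 in HKO, with 3.90, 3.91, 4.08, 3.88 and 3.87 in DKO on log2(FPKM + 0.5). All 5 DKO libraries lay above all 5 HKO libraries, and the lower IKO libraries were replicates 4 and 5. The median interaction was 0.13 with library weights and 0.18 without the 3 libraries highest in acinar markers, of which DKO replicate 3 had the highest level of this list among the 20.

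Fdps was at 57.2, 57.9, 63.9, 58.5 and 57.0 FPKM in WT, 49.0, 48.9, 55.7, 42.7 and 40.3 in IKO, 48.9, 48.3, 40.4, 46.2 and 46.5 in HKO, with 47.9, 47.3, 56.7, 47.5 and 46.8 in DKO. Each WT library lay above each library of the other groups. Hmgcs1, which catalyses an early step, had an interaction of 0.56 (SE 0.19), and the late enzymes Nsdhl (0.37), Dhcr7 (0.31) and Cyp51 (0.29) were also above 0. So were the regulators Insig1 (0.56) and Srebf2 (0.39). The squalene enzymes Sqle (-0.05), Fdft1 (-0.03) and Lss (0.02) were close to 0.

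The promoters of Cyp51 and Hmgcs1, the list members of lowest interaction p with an entry, are shown with the sterol regulatory element core CACNCCA of either strand in capitals. Hmgcs1 holds 1 such core and Cyp51 none in this window. Of the 25 tested members 17 have an entry, and 5 of these (29.4%) hold it, against 18.4% of all promoters. The list is made of genes known to share control by Srebf2. Each member counts by 1 promoter, while the share of all promoters counts every entry. Here too a match is only a run of letters.
Cyp51, chr5:4104648-4104947, minus strand: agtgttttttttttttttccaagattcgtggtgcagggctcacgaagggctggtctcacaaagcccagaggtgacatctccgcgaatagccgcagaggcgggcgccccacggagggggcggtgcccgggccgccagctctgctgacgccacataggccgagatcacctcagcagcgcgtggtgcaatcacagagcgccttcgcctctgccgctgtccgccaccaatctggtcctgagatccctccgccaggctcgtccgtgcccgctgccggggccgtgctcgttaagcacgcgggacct
Hmgcs1, chr13:119690101-119690400, plus strand: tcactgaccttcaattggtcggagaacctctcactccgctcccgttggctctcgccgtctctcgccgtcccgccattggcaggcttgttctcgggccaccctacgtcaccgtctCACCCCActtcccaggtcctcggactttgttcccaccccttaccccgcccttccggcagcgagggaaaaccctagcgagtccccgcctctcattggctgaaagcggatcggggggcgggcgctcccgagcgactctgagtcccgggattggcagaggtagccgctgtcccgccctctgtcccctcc

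Genes of the interferon response and MHC class I, the proteins that present peptides to T cells, had a median interaction of 0.48. Of 31 tested genes 29 lay above 0 and none passed with limma. At an unadjusted p below 0.05, 7 were positive, beside 2.20% of all genes. The sets disagreed, with -0.23 in replicates 1 and 2, 0.87 in replicate 3 and 0.89 in replicates 4 and 5. The mean level of the list in WT was 3.85 and 3.83 in replicates 1 and 2, 4.42 in replicate 3, and 4.99 and 5.07 in replicates 4 and 5, while IKO stayed between 4.02 and 4.15. HKO ranged from 3.91 to 4.59 and DKO from 3.95 to 4.69. WT replicates 4 and 5 were therefore the 2 highest of all libraries.

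Irf7, a transcription factor that amplifies the interferon response, showed this split. It was at 15.9, 17.3, 68.2, 98.4 and 97.0 FPKM in WT, 26.0, 28.0, 33.1, 41.4 and 40.5 in IKO, 25.5, 24.6, 22.8, 65.2 and 67.2 in HKO, with 21.5, 20.7, 66.9, 60.9 and 57.2 in DKO. Its interaction was 0.58 (SE 0.71), from -0.92 in replicates 1 and 2 to 2.56 in replicate 3. Irf9, which carries the interferon signal to DNA, had an interaction of 0.58 (SE 0.244), Gbp7 had 0.48 (SE 0.200), and the antiviral gene Ifit1 had 0.93 (SE 0.45). Irf9 and Gbp7 were positive in all 3 sets and Ifit1 was not. Markers of other cell types were compared with these values. Of 10 tested immune cell markers 9 lay above 0, with a median interaction of 0.51 and set medians of 0.59, 1.98 and -0.31, and the 20 markers summed to 35.8 to 50.8 FPKM in WT, 37.7 to 43.1 in IKO, 27.6 to 50.2 in HKO, with 45.8 to 69.2 in DKO. The defining leukocyte gene Ptprc was at 0.0191 to 0.341 FPKM, while the immune marker Cd68 was at 8.22 to 17.7 FPKM and Lyz2 at 0.0681 to 2.05. The immune set medians were opposite in sign to those of the interferon list in replicates 1 and 2 and in replicates 4 and 5.

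Endothelial markers had set medians of the same signs as the interferon list (-0.14, 1.66 and 0.40), with a median interaction of 0.43 over 6 tested markers, 5 above 0. Their mean level on log2(FPKM + 0.5) was 1.95 and 2.06 in WT replicates 4 and 5 and 2.27 in DKO replicate 3, against 1.04 to 1.44 in the other 17 libraries. The 19 endothelial markers summed to 27.1 to 45.6 FPKM in WT, 27.5 to 33.5 in IKO, 28.0 to 36.1 in HKO, with 29.9 to 45.4 in DKO, and the endothelial adhesion gene Pecam1 was at 0.186 to 2.06 FPKM. Stellate cell and fibroblast markers, of which 2 were tested (interactions above 0, median 0.70, set medians 0.38, 1.76 and 0.48), were highest in the same 3 libraries, at 1.54 and 1.43 in WT replicates 4 and 5 and 2.01 in DKO replicate 3, against 0.00762 to 1.02 in the others. The 19 stellate and fibroblast markers summed to 3.23 to 8.05 FPKM in WT, 2.99 to 4.79 in IKO, 2.54 to 5.10 in HKO, with 3.42 to 13.8 in DKO, and the collagen gene Col1a1 was at 0.00859 to 0.739 FPKM. The part of immune, endothelial and stellate cells in the interferon values was not tested.

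**Figure D4:**
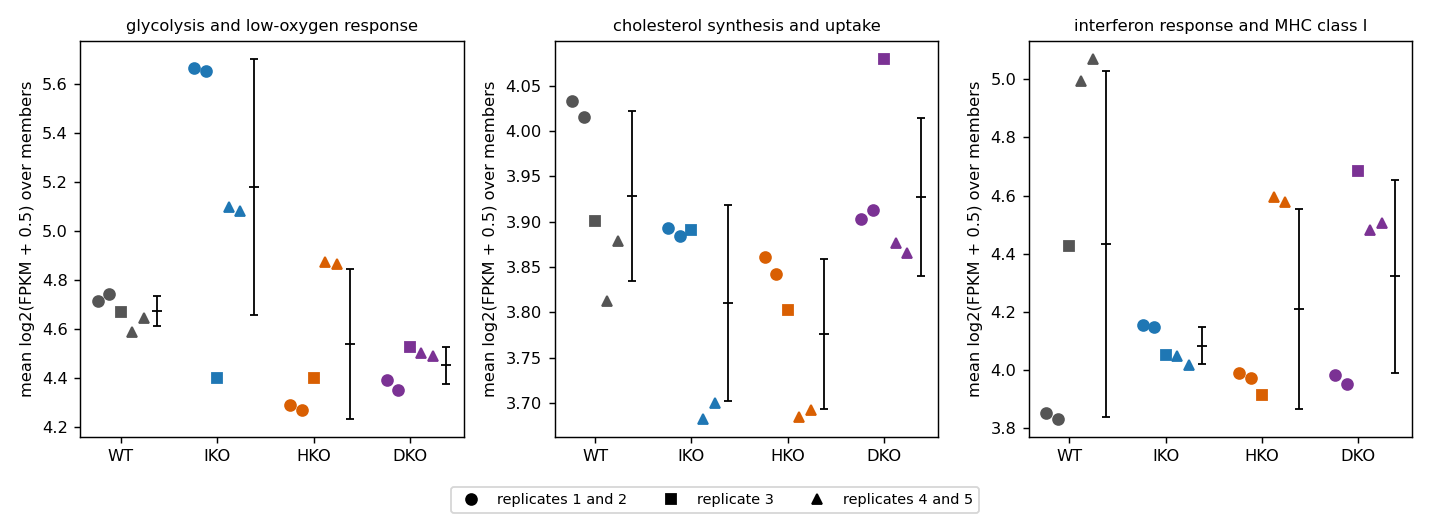
Mean of log2(FPKM + 0.5) over the tested members of 3 gene lists (y axes) in each library, by genotype. Circles are replicates 1 and 2, squares replicate 3 and triangles replicates 4 and 5, with the mean ± SD of 5 libraries beside each group. In the left panel 4 IKO libraries lie at 5.08 to 5.67 and IKO replicate 3 at 4.40, in the middle panel all DKO points lie above all HKO points, and in the right panel WT replicates 4 and 5 are highest.

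The lists closest to the known functions of the 2 factors had medians near that of all genes. The list that holds genes linked to HNF4A had a median change of -0.44 between HKO and WT and of -0.44 between DKO and IKO. Its median interaction was 0.06 over 26 genes, 14 above 0, with none reached in either direction at an unadjusted p below 0.05. Known FoxO targets had a median of 0.05 over 34 genes, with 1 positive and 3 negative at an unadjusted p below 0.05. These were the proprotein convertase Pcsk6 (0.24, SE 0.095) and, on the negative side, Egln3, Bnip3 and the cell cycle inhibitor Cdkn1a (-0.51, SE 0.199). Cdkn1a was at 60.6, 61.5, 37.1, 73.5 and 69.2 FPKM in IKO and 45.5 to 49.5 in WT, so that IKO replicate 3 again differed from its group.

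Beta cell transcription factors (22 genes, median 0.02), insulin production and granule genes (20 genes, -0.01), oxidative phosphorylation (36 genes, -0.01) and folding and stress genes of the endoplasmic reticulum (23 genes, -0.02) had medians close to the 0.00188 of all genes. Among them Scg3, a granule sorting protein, had an interaction of -0.38 (SE 0.119). Glucose sensing and exocytosis genes had a median of 0.10 over 25 genes, 18 above 0. Their set medians were 0.13, -0.21 and 0.25, beside 0.08, -0.15 and -0.00 for all genes. Among them the calcium channel subunit Cacna1c (0.29) was positive and the priming factor Unc13a (-0.32) negative at an unadjusted p below 0.05.

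Insulin and growth factor signalling had a median of 0.11 over 25 genes, 18 above 0, with set medians of 0.13, -0.19 and 0.26. It includes the kinases Akt2 (0.20, SE 0.058) and Akt1 (0.20, SE 0.090), which phosphorylate Foxo1, and both were positive in all 3 sets. The ATF4 and amino acid response had a median of -0.14 over 27 genes, 22 of them below 0, with none reached at an unadjusted p below 0.05. Its set medians of 0.05, 0.10 and -0.23 differed in sign, with the negative one in replicates 4 and 5. Fatty acid and triglyceride synthesis had a median of 0.08 over 25 genes, with set medians of 0.13, -0.09 and 0.16. In this list Thrsp (0.84), Fads2 (0.76) and the desaturase Scd1 (0.57) were positive at an unadjusted p below 0.05. Dgat2 (-0.62), the last enzyme of triglyceride synthesis, was negative at that level. Acinar cell markers had a median of -0.71, with 25 of 25 below 0 and none reached at an unadjusted p below 0.05. Their set medians of -0.12, 1.94 and -2.56 differed in sign.

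For single genes the sign of the interaction in replicates 1 and 2 matched that in replicates 4 and 5 about as often as it differed. Across genes the interaction in replicates 1 and 2 correlated at r = -0.272 with that in replicate 3 and at r = -0.030 with that in replicates 4 and 5, and the last 2 sets correlated at r = 0.044. The SD over genes was 0.312, 0.490 and 0.401 in the 3 sets. Replicates 1 and 2 and replicates 4 and 5 gave the same sign for 6491 genes (52.1%). Of 172 genes with an interaction of at least 1 in size in replicates 1 and 2, 83 had the same sign in replicates 4 and 5, and of 312 such genes in replicates 4 and 5, 153 had the same sign in replicates 1 and 2.

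The difference between the 2 pairs of libraries itself passed for 2980 genes (23.9%) with limma on the 16 libraries concerned, 947 with a higher and 2033 with a lower interaction in replicates 4 and 5. These p-values may be too small, because the close pairs may be repeat preparations of 1 sample. With libraries scaled to equal medians the split was 1530 higher of 3052, and with quantile normalization 1586 of 3032, so the split depended on the scaling. The interferon list held 26 higher and 1 lower, and acinar markers 1 higher and 23 lower.

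Ccdc190, a coiled-coil gene of little known function, had the largest such difference at -8.69 (limma adjusted p = 1.2e-11). It was at 61.1, 59.1, 184, 92.4 and 92.9 FPKM in WT, 59.5, 57.7, 99.98, 244 and 253 in IKO, 0.242, 0.498, 61.9, 74.4 and 70.9 in HKO, with 75.9, 72.1, 21.2, 41.2 and 42.1 in DKO. In HKO replicates 1 and 2 it was almost absent, and the other 18 libraries lay at 21.2 FPKM or more. Neat1, a nuclear long noncoding RNA that builds paraspeckles, had -2.23, the neuronal pentraxin Nptx2 -3.47, the G-protein regulator Rgs11 -1.65, Fam193b -1.75 and the antiviral gene Oasl2 2.92. Over all 20 libraries the interactions of these 6 genes were between -0.65 and 1.57 with SEs of 0.286 to 1.52, and none passed.

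**Figure D5:**
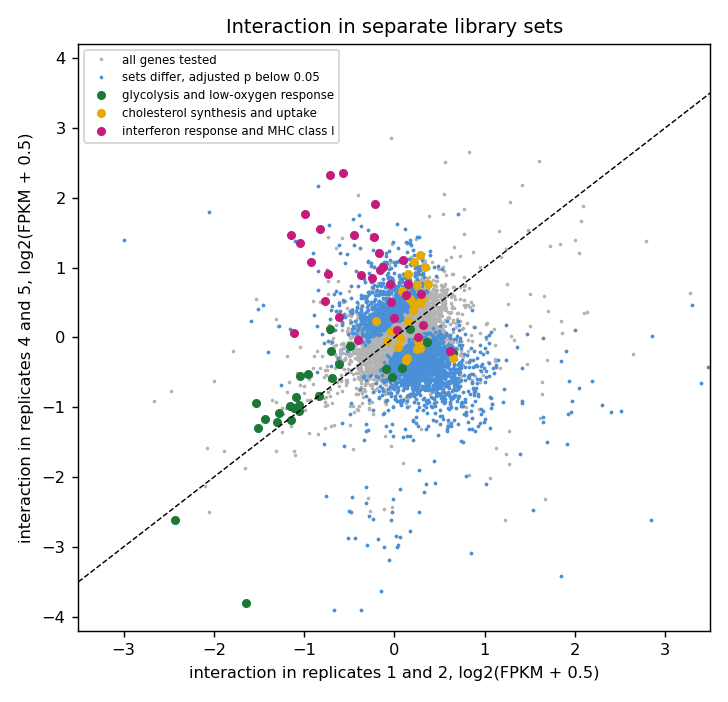
Interaction on log2(FPKM + 0.5) in replicates 1 and 2 (x axis) against replicates 4 and 5 (y axis), 1 grey point per gene, with 4 genes outside the axes. Blue points are genes whose interaction differed between these sets, larger points are members of 3 gene lists, and the dashed line marks equal values. Glycolysis genes lie mostly at negative values in both sets, cholesterol genes mostly at positive values, and interferon genes run from negative to positive.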

How the data were processed

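Poly-A selected RNA of sorted beta cells was sequenced as directional paired-end libraries, per the labels' protocols. The authors deposited 1 table of FPKM values with 27179 entries and 20 library columns. Tools named in the submitters' processing notes are DESeq2 1.14.1, featureCounts, STAR 2.5.2b and Subread 1.5.2, with the build mm10 and no roles. No source used here gives the annotation or the use of strand in counting, so overlapping or near-identical genes may share reads. Entries named NA (847) or by a date (27) were left out.

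Genes with a mean FPKM of at least 0.5 were fitted over all 20 libraries with limma 3.58.1 under R 4.3.3, on log2(FPKM + 0.5), using contrasts of group means and a trended eBayes, and p-values were adjusted by Benjamini-Hochberg over 12455 genes. The pseudocount of 0.5 understates changes of low genes. Groups and replicate numbers came from the sample titles. The scripts were tested on simulated data. Whole reads were recovered from the FPKM values for 21006 entries, within a tolerance of 0.02 reads. The recovery itself sought whole values, so meeting this tolerance is not a test of it. The recovered values gave depth, the comparison of replicates and a voom alternative. Over genes with at least 20 reads in a pair of libraries, chi-square per degree of freedom was 1.44 to 3.08 for the 8 close pairs and 6.05 to 21.5 for the other 32.

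Named genes were Foxo1 and Hnf4a, genes passing for the interaction, the 8 positive and 8 negative interactions of lowest p with a mean of at least 1 FPKM and the same sign in 3 library sets, the largest averaged effects and those with the lowest interaction p, up to 3 genes per list by interaction p, and 6 genes by the difference between sets (mean of at least 5 FPKM). Further list members were named after their values were seen. The comparison, the genes and the lists were chosen with earlier results of these data known. Alternatives were other pseudocounts, filters, scalings, library weights, blocks, averaged or correlated close pairs, reads in place of FPKM and libraries left out. Promoters came from RefSeq (GRCm38.p6). Some genes are not reported here.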

Additional observations from a re-analysis of the deposited data

Results flagged for a closer look

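Copz2 was the 1 gene whose Foxo1 effect differed between the Hnf4a states by the test itself, with an interaction of -0.48 (limma adjusted p = 0.0274). The adjusted p was 0.408 with equal medians, 0.99984 with close pairs averaged and 0.673 when they were treated as correlated, and the call was lost in 14 of 20 fits with 1 library left out.

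The interaction differed between replicates 4 and 5 and replicates 1 and 2 (limma adjusted p below 0.05) for 31 of the 60 genes examined one by one, beside 2980 of all 12455 genes (23.9%). Of the 60 genes 6 were chosen by this difference. The test reads it against the spread within close pairs, which may be repeat preparations, so its p-values may be too small. On the log2 scale the difference was above 0 for Foxo1 (0.76), Fdps (0.30), Slc29a4 (0.38), Cyb5r3 (0.87), Sparcl1 (1.18), Pcsk6 (0.29), Scg3 (0.33), C1qa (0.71), Ucp2 (0.71), Thrsp (1.06), Fads2 (1.22), Ccnd3 (0.29), Gbp7 (0.61), Irf9 (1.003) and Oasl2 (2.92). It was below 0 for Qpct (-0.53), Rnf208 (-0.81), Try4 (-2.86), Pnlip (-2.31), Ctrb1 (-2.43), Prss2 (-2.71), Try5 (-2.68), Smoc1 (-0.60), Cdkn1a (-0.81), Fosb (-1.06), Dusp1 (-1.16), Ccdc190 (-8.69), Neat1 (-2.23), Nptx2 (-3.47), Rgs11 (-1.65) and Fam193b (-1.75).

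In 19 of 252 groups of 5 libraries checked, 1 library lay far from its group (Dixon's test at the 95% level). Chance gives about 1 in 20 only where the 5 libraries are independent. Libraries of a close pair resemble each other and seldom stand apart alone, which leaves replicate 3 most open to a flag. The count is therefore not read against that rate. DKO replicate 3 was the high one for Fdps (56.7 FPKM), Ctrb1 (476 FPKM), Irx2 (2.62 FPKM), Irf9 (27.01 FPKM) and Akt2 (52.3 FPKM) and the low one for Rpl29 (27.8 FPKM), Sparcl1 (5.37 FPKM), Cdkn1a (40.01 FPKM) and Scg3 (771 FPKM), and it had the high mean level of the cholesterol list (4.08 on log2(FPKM + 0.5)). Of the others, Fdps was high in WT replicate 3 (63.9 FPKM), Syce2 was high in HKO replicate 4 (5.67 FPKM), Rnf208 was high in HKO replicate 3 (10.6 FPKM), Rps15a-ps5 was low in HKO replicate 3 (0.624 FPKM), Egln3 was high in WT replicate 5 (0.517 FPKM), Cdkn1a was low in IKO replicate 3 (37.1 FPKM), C1qa was high in WT replicate 4 (18.04 FPKM), Rgs11 was low in WT replicate 3 (51.2 FPKM) and Rgs11 was high in HKO replicate 3 (96.8 FPKM).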

How the results depend on the processing

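With 1 gene passing for the interaction as reported, 0 passed with equal medians (578 at an unadjusted p below 0.05), with close pairs averaged (145), with close pairs averaged and library set as a block (264), with close pairs correlated (170), with voom on recovered reads (535), without the 3 libraries highest in acinar markers (438) and without replicate 3 of all genotypes (804), all fitted with limma. It was 99 with array weights, 48 of them positive, and 2 with library set as a block over 20 libraries. Leaving out 1 library gave 0 to 2. The interaction of Copz2 stayed negative in all of these, from -0.51 to -0.41, and its limma adjusted p was between 0.00373 and 0.99984. For the averaged Hnf4a effect the 324 genes became 1688 with array weights, 46 with close pairs averaged, 68 with library set as a block as well, 94 with close pairs correlated, 630 with library set as a block over 20 libraries and 197 with the acinar level as a covariate, and 254 to 403 with 1 library left out. For the averaged Foxo1 effect the 2 genes became 1 without a filter, at a mean FPKM of at least 2, with close pairs averaged, with or without library set as a block, with close pairs correlated, with voom and with the acinar covariate. They became 5 with equal medians, 4 with quantile normalization, 1127 with array weights, 9 with library set as a block over 20 libraries, 4 without the acinar-high libraries and 14 without replicate 3, and 1 to 8 with 1 library left out. The difference between sets passed for 1471 genes with array weights and for 2452 to 2867 with 1 library left out. With array weights the interactions of Foxo1 and Hnf4a turned to -0.0619 and -0.170, and with the acinar covariate those of Pnlip, Ctrb1 and Prss2 to 0.219, 0.0458 and 0.0530. The cause of the first was not tested, and the second follows from the covariate, which is built from these genes. Other pseudocounts changed no count by over 1.5 times.

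Replicate numbers were not taken as pairing, which needed a correlation above 0.1 of deviations from group means in every same-numbered pair: 24 of 30 pairs reached it, replicate 3 ran from -0.386 to 0.254 and the others from 0.081 to 0.499. By best correlation 10 of 20 libraries matched their own number, a count that close pairs blur. With the replicate number as a block, 1 gene passed for the interaction, 515 for the averaged Hnf4a effect and 3 for the averaged Foxo1 effect. The consensus correlation within close pairs was 0.81. The settings named as no replicate 3, acinar and set block over 20 libraries were chosen after seeing the data. There were 5 libraries per genotype, and perhaps only 3 separate preparations. Whether the spread between libraries or depth limits the interaction was not tested.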
